A study of Mus musculus with 6 samples.

Results

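Molecular chaperones bind proteins that are unfolded or newly made and keep them from clumping. HSP70 proteins do this in cycles of ATP use, helped by J-domain cochaperones of the DNAJ families that bring clients and by exchange factors that release them. HSP90 takes partly folded clients onward, HSP60 with its lid HSP10 folds proteins inside mitochondria, and the CCT ring folds actin and tubulin in the cytosol. The heat shock factor HSF1 is the main inducer of the stress-responsive members. In microglia, the resident macrophages of the brain, these genes serve the same housekeeping of proteins as in other cells.

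The genes described here are the chaperones and cochaperones of the cytosol and mitochondria, taken by name from a table of 26096 genes. They are the symbols that start with Hspa, Hspb, Hspd, Hspe, Hsph, Hsp90, Dnaj or Hsf, the symbols Cct followed by a digit, and Tcp1. The endoplasmic reticulum chaperones Hspa5, Hsp90b1, Dnajb9, Dnajb11 and Dnajc3 and 9 pseudogene symbols were left out. This gave 82 genes, and all 82 gene IDs were in the GENCODE M21 annotation. Choice by name also brought in some genes that only bind or resemble a chaperone, such as Hspbap1 and the intraflagellar transport subunit Hspb11, and some J-domain proteins that reside in the endoplasmic reticulum.

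RNA was sequenced from wild-type mouse microglia that had been given culture medium of ferroptotic bone marrow-derived macrophages (n = 3) or culture medium of normal bone marrow-derived macrophages (n = 3). Ferroptosis is an iron-dependent cell death driven by lipid peroxidation. The sources used here do not give the inducer, the duration of the exposure or where the microglia came from. The labels do not say that the samples were separate cultures. The p-values therefore rest on the spread between these libraries alone, and that spread may be technical.

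The depth, as whole reads recovered from the deposited values, was 39624311 to 41953603 reads per library with ferroptotic medium and 43419446 to 50557794 with normal medium. The macrophage genes Csf1r, Cd68, Spi1 and Tyrobp were abundant in all libraries, whereas the microglia markers P2ry12 and Tmem119 were at or near 0. Of 11 tested microglia and macrophage markers 2 rose, 4 fell and 5 did not pass. Over all tested genes 19.7% rose and 22.8% fell. The summed normalized counts of 4 neuron markers were 104 to 114 with ferroptotic medium and 15.7 to 42.1 with normal medium, and those of 5 neutrophil and T cell markers were 139.6 to 159.5 with ferroptotic medium and 9.25 to 30.4 with normal medium. In the ferroptotic libraries nearly all of that sum was S100a8, at a mean of 144 with ferroptotic medium and 13.2 with normal medium. It was the only gene of that list tested, and the T cell gene Cd4 averaged 1.11 normalized counts with ferroptotic medium and 5.22 with normal medium, and Cd8a 0 with ferroptotic medium and 1.63 with normal medium. For 6 astrocyte markers the sums were 1159 to 1219 with ferroptotic medium and 880.1 to 982 with normal medium, most of it Gja1, while Aldh1l1 fell (log2 fold change -0.64, limma adjusted p = 0.0325) and Gfap overlapped between media. For 6 oligodendrocyte markers they were 6146 to 6359 with ferroptotic medium and 8826 to 9386 with normal medium. For 8 endothelial and fibroblast markers they were 429.7 to 485 with ferroptotic medium and 329 to 350.5 with normal medium. All 16 proliferation markers fell, beside 22.8% of all tested genes. Their sums were 65637 to 67702 with ferroptotic medium and 172317 to 178265 with normal medium. The part of these markers in the results below was not tested.

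Short stretches of 6 promoters are shown because they hold the letters that HSF1 recognises, inverted repeats of GAA and TTC units, in genes that moved in opposite directions. The sequences are RefSeq promoters of build GRCm38.p6, written 5′ to 3′ on the gene's strand, with the units of a matched repeat in capitals. Other GAA or TTC letters outside a match stay in lower case.
Hspe1, chr1:55088053-55088082, plus strand: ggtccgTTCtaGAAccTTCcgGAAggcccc
Hsph1, chr5:149636279-149636308, minus strand: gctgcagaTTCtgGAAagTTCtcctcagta
Dnajb6, chr5:29735844-29735873, plus strand: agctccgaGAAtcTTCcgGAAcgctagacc
Dnaja1, chr4:40722333-40722362, plus strand: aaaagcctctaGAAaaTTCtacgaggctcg
Dnajb4, chr3:152193841-152193870, minus strand: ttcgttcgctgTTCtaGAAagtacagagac
Hspa1a, chr17:34972169-34972288, minus strand: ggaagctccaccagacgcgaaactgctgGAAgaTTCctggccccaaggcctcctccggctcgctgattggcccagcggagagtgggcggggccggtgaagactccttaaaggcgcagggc

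The stretch named for Hspe1 also lies in the promoter window of Hspd1, which is transcribed the other way from a RefSeq start 216 bases before that of Hspe1. The Hsph1 stretch begins 7 bases past a start. Windows of 300 bases, 250 before and 50 after each start, were found for 67 of the 82 genes. Hspa8, Hspa9, Hsp90aa1, Hsp90ab1 and Hsf1 were among the genes without a window. The 27025 genes set beside them below are all genes with such a window, not only the tested ones. A run of 3 units (TTCNNGAANNTTC or GAANNTTCNNGAA, both strands) stood in 4 of the 67, namely Hspe1, Hspd1, Hsph1 and Dnajb6, which is 5.97%, and in 0.662% of 27025 genes. A pair of units (TTCNNGAA or GAANNTTC, also found inside each run of 3) stood in 20 of the 67 genes, or 29.9%, and in 17.0% of the 27025 genes. The runs of Hspe1 and Hspd1 are the same bases, so that site counts for both genes. The differences between the shares of members and of all genes were not tested. A match describes letters and not binding. The genes whose stretches are shown included Hspe1, Hsph1, Dnaja1 and Hspa1a, which fell, and Dnajb6 and Dnajb4, which rose.

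Of the 82 genes, 69 reached 10 or more normalized counts in 3 or more libraries and were tested. With ferroptotic medium 14 rose and 22 fell at a limma adjusted p of 0.05, and 33 did not pass, where adjustment ran over all 15597 tested genes. The share called was 52.2% of the 69, set beside 42.5% of all tested genes (19.7% rose and 22.8% fell). The difference between these shares was not tested. The median log2 fold change of the 69 was -0.012, beside -0.0050 over all tested genes. Of the 69 genes 10 were called and moved by at least 0.5 log2 units, as did 20.3% of all tested genes. Of the same 69, 0 were called and moved by at least 1, as did 7.65% of all tested genes. The libraries of both media did not overlap for 42 of the 69, beside 53.7% of all tested genes. Without ferroptotic medium replicate 3, 9 of the 69 rose, and without normal medium replicate 2, 17 fell. Calls over all tested genes dropped too. Without ferroptotic medium replicate 3, 2668 of them rose, against 3077 with all libraries. Without normal medium replicate 2, 3115 of them fell, against 3552.

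Fewer cells of a type and less RNA per cell cannot be told apart in bulk RNA. Summed over the 69 genes, normalized counts were 491512, 485351 and 506163 with ferroptotic medium, against 539895, 530091 and 550850.0 with normal medium. Every ferroptotic library lay below every normal one, and the means differed by -8.5%. The 69 genes took 1.13% to 1.15% of all normalized counts with ferroptotic medium and 1.25% to 1.28% with normal medium. By role, the difference of ferroptotic from normal medium was -23.7% for the sum of Hspd1 and Hspe1, -13.7% for the HSP70 and HSP110 genes, -7.96% for the CCT ring and 14.4% for the DNAJB genes. The HSP70 and HSP110 sum averaged 123353 with ferroptotic medium and 142883 with normal medium. Hspa8 alone averaged 47088 with ferroptotic medium and 67222 with normal medium, a wider gap than that of its whole group. The difference of that group therefore rests on Hspa8. None of the sums was tested.

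**Figure D1:**
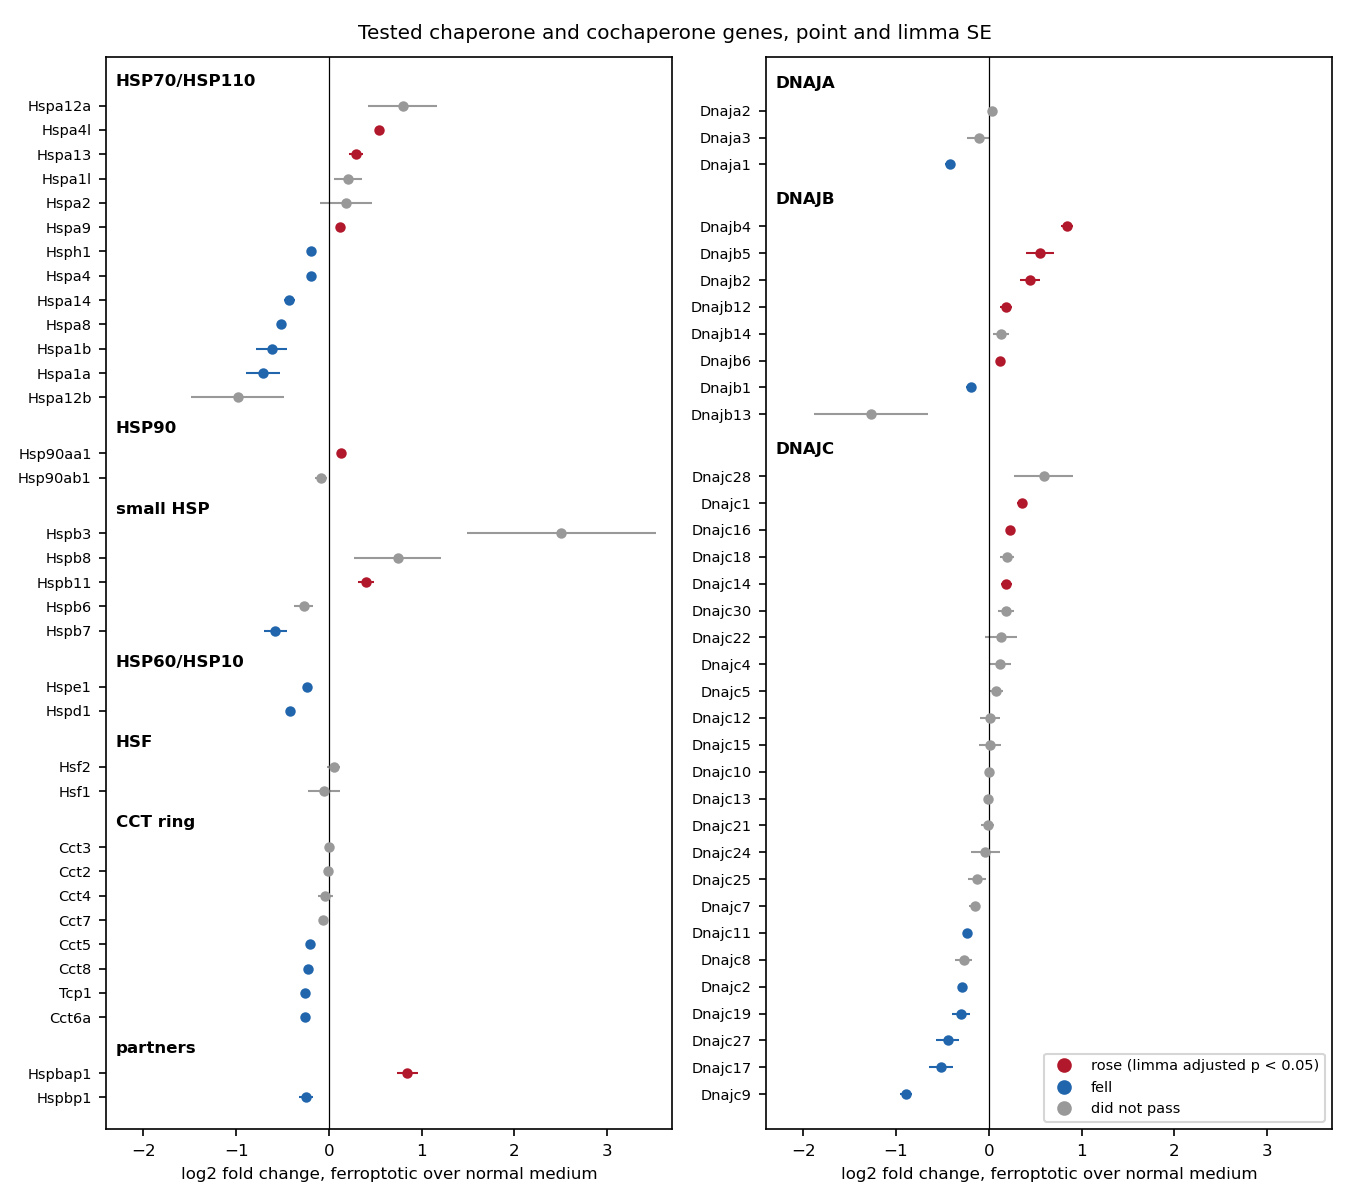
Log2 fold change (ferroptotic over normal medium, on the log2 of normalized count + 1) of the 69 tested genes by role; points are estimates, bars limma standard errors, red rose, blue fell and grey did not pass. The HSP60/HSP10 pair and the called CCT genes lie left of 0, and the 5 called DNAJB genes right of 0 stand beside Dnajb1 at -0.19.

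Among the HSP70 and HSP110 genes the constitutive and the heat-inducible cytosolic forms fell, and the mitochondrial form, one HSP110 exchange factor and an endoplasmic reticulum relative rose. Of 13 genes, all tested, 3 rose, 6 fell and 4 did not pass, with a median log2 fold change of -0.19, where 19.7% of all tested genes rose and 22.8% fell. Hspa8 encodes HSC70, the main constitutive HSP70 of the cytosol. It had 47616, 45916 and 47729.5 normalized counts with ferroptotic medium, against 66239, 66788 and 68639 with normal medium. No libraries of the media overlapped, and the spread within a medium was far smaller than the gap (log2 fold change -0.51, SE 0.03, limma adjusted p = 1.04e-06). The gene holds 3 small nucleolar RNA genes of the same strand in M21.

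Hspa9 encodes mortalin, the HSP70 of the mitochondrial matrix. Its normalized counts were 33615, 33807 and 34375 with ferroptotic medium and 31790.0, 30752 and 30814 with normal medium. All ferroptotic libraries were higher, by a small margin (log2 fold change 0.12, SE 0.03, limma adjusted p = 0.00421), and of the 15 alternatives the call was lost only with limma without trend and robust (limma adjusted p = 0.0636). Within each library the count of Hspa8 was 1.42, 1.36 and 1.39 times that of Hspa9 with ferroptotic medium, against 2.08, 2.17 and 2.23 times with normal medium.

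The heat-inducible pair Hspa1a and Hspa1b was scarce. Hspa1a had 65.9, 65.5 and 59.8 normalized counts with ferroptotic medium, against 89.1, 123 and 106 with normal medium. Hspa1b had 156, 177 and 226 with ferroptotic medium, against 267, 331 and 257 with normal medium. Both were lower in every ferroptotic library (log2 fold changes -0.71, SE 0.18, and -0.62, SE 0.17, with limma adjusted p = 0.0127 and adjusted p = 0.0159). Without normal medium replicate 2 the limma adjusted p-values were 0.0561 and 0.0579. The promoter windows of the pair are identical at 296 of 300 bases, the Hspa1a stretch shown above stands in both, and near-identical copies can share reads, so the split between them is uncertain. Their summed counts were 222, 243 and 286 with ferroptotic medium, against 356, 453 and 363 with normal medium, a difference of -36% between the means.

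Hspa4, Hspa4l and Hsph1 encode HSP110 proteins, which act as exchange factors for HSP70. Hspa4l had 7821, 7699 and 8454 normalized counts with ferroptotic medium, against 5657, 5277 and 5490.0 with normal medium, so every ferroptotic library was higher (log2 fold change 0.54, SE 0.05, limma adjusted p = 2.36e-05). Hspa4 moved the other way, with 17145, 17444 and 18274 counts with ferroptotic medium, against 20673, 19799.7 and 20094 with normal medium (-0.20, SE 0.03, limma adjusted p = 0.00148). Hsph1 fell as well, with 10669, 10980.1 and 11095 counts with ferroptotic medium, against 12470.2, 12565 and 12299.6 with normal medium (-0.19, SE 0.03, limma adjusted p = 0.000974). The libraries of the media did not overlap for any of the 3 genes. Hspa4l reached 0.456, 0.441 and 0.463 of the count of Hspa4 in ferroptotic libraries and 0.274, 0.267 and 0.273 in normal ones.

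Hspa14 encodes an HSP70 of the ribosome-associated complex, which it forms with the J protein Dnajc2. Its counts were 2599, 2840.4 and 2964 with ferroptotic medium and 3703, 3692 and 3888 with normal medium (log2 fold change -0.43, SE 0.06, limma adjusted p = 0.00033). It shares 321 exon bases with the same-strand model Gm45902. Dnajc2 also fell, with 3919.6, 4175 and 4084 counts with ferroptotic medium, against 5022, 5073 and 4778 with normal medium (-0.29, SE 0.04, limma adjusted p = 0.000656). Hspa13, an HSP70 relative in the endoplasmic reticulum, rose (0.29, SE 0.07, limma adjusted p = 0.0118), with a mean of 2473 ± 144 normalized counts with ferroptotic medium and 2026 ± 169.7 with normal medium (SD, n = 3 each). The 4 genes that did not pass were Hspa12a, Hspa12b, Hspa1l and Hspa2, whose limma adjusted p-values ran from 0.121 to 0.646.

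**Figure D2:**
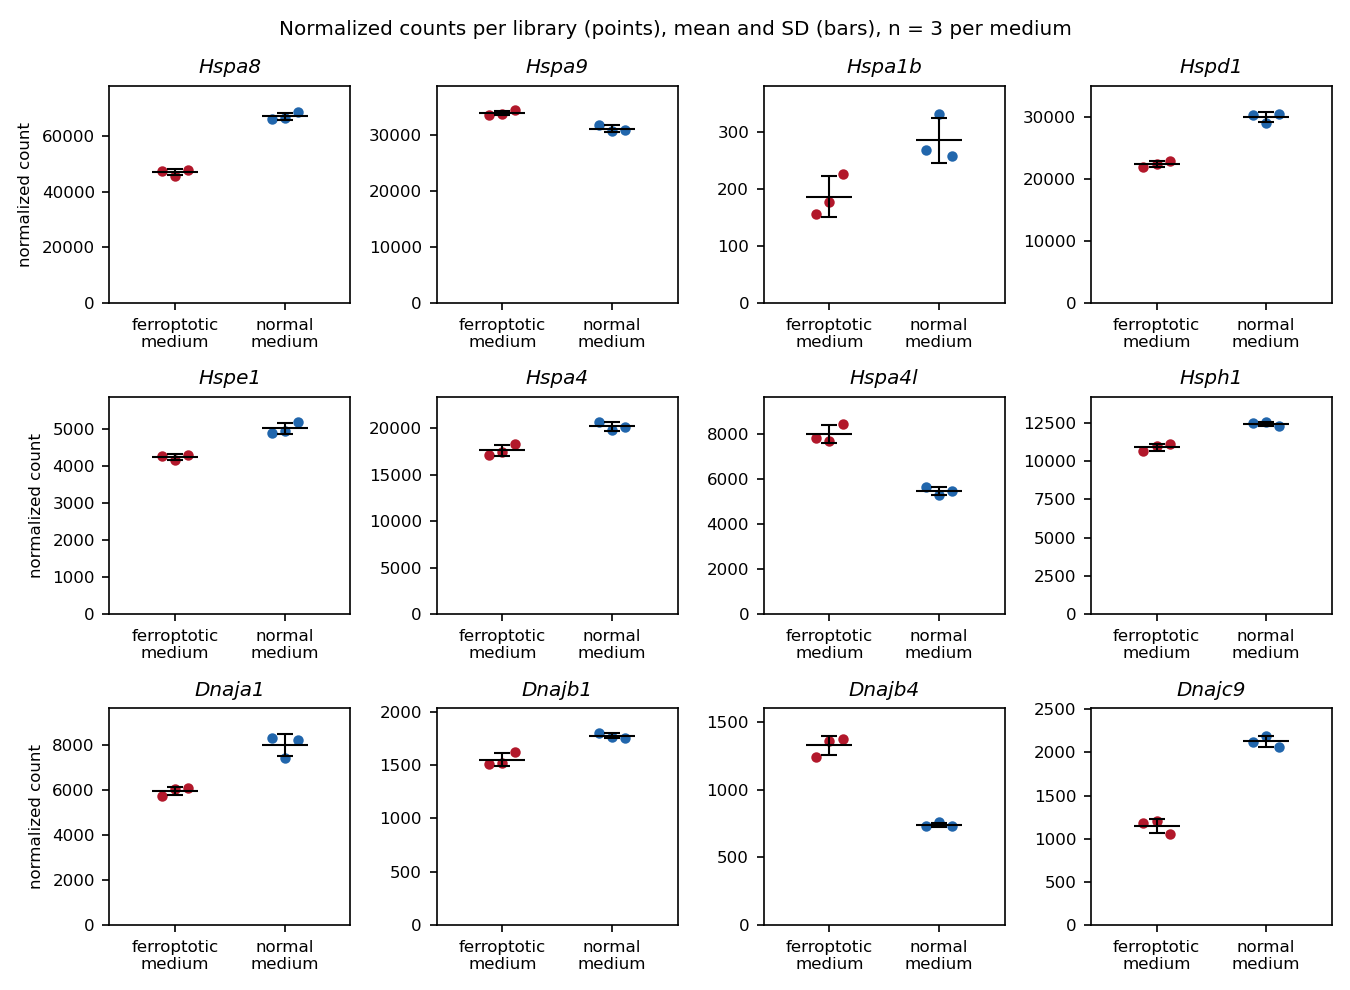
Normalized counts (vertical axes, from 0) of 12 genes in each library; points are libraries, ferroptotic medium in red and normal medium in blue, and bars give mean and SD, n = 3 per medium. Red and blue do not overlap in any of the 12 panels, and Hspa9, Hspa4l and Dnajb4 are the panels with red above blue. The 12 genes are a selection: the media did not overlap for 42 of the 69 tested members, beside 53.7% of all tested genes.

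Per kilobase of transcript, the level of Hsp90ab1 was 39157 normalized counts with ferroptotic medium and 41459 with normal medium, the highest of the 82 genes. Hspa8 came next, at 19669 with ferroptotic medium and 28079 with normal medium. Hsp90ab1, the constitutive cytosolic form, had 101713, 91046 and 103264 normalized counts with ferroptotic medium and 102156, 99287 and 111985 with normal medium. The groups overlapped (log2 fold change -0.08, SE 0.07, limma adjusted p = 0.366), and only under quantile normalization did it pass, as a fall (-0.23, limma adjusted p = 0.00465). Hsp90aa1, the stress-inducible form, had 29805, 31146 and 32367 with ferroptotic medium, against 29232, 27113 and 28741 with normal medium. It rose slightly without overlap of the libraries (0.13, SE 0.04, limma adjusted p = 0.0257), but the call was lost in 4 of 15 alternatives, among them without normal medium replicate 2 (limma adjusted p = 0.0878) and without ferroptotic medium replicate 2 (0.066) or 3 (0.0851). The ratio of Hsp90aa1 to Hsp90ab1 was 0.293, 0.342 and 0.313 with ferroptotic medium, against 0.286, 0.273 and 0.257 with normal medium.

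The mitochondrial chaperonin and its lid fell together. Hspd1, which encodes HSP60, had 21853, 22433 and 22809 normalized counts with ferroptotic medium, against 30294, 28923 and 30442 with normal medium (log2 fold change -0.42, SE 0.03, limma adjusted p = 9.89e-06). Hspe1, which encodes HSP10, had 4279, 4154 and 4297 with ferroptotic medium, against 4899, 4948 and 5179.7 with normal medium (-0.24, SE 0.04, limma adjusted p = 0.00119). The media did not overlap for either gene. Hspd1 exceeded Hspe1 5.11, 5.4 and 5.31 times with ferroptotic medium, against 6.18, 5.85 and 5.88 times with normal medium. The genes share the promoter stretch shown above and 112 exon bases on opposite strands, and the sources used here do not say whether counting used strand.

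Of the 8 tested mitochondrial members 1 rose (Hspa9), 4 fell and 3 did not pass, beside 19.7% and 22.8% of all tested genes. Besides Hspd1 and Hspe1 the falls were Dnajc11, linked to mitochondrial membrane organisation, and Dnajc19, of the import motor. Dnajc11 had 3884, 3790.0 and 3988 normalized counts with ferroptotic medium, against 4512, 4562 and 4676 with normal medium (log2 fold change -0.24, SE 0.04, limma adjusted p = 0.00118). Dnajc19 had 597, 616 and 666 with ferroptotic medium, against 859, 769 and 695 with normal medium (-0.30, SE 0.10, limma adjusted p = 0.0316). Its call was lost without ferroptotic medium replicate 1 or 2 or normal medium replicate 1 or 2, with limma adjusted p-values of 0.0715 to 0.107. In the wider mitochondrial list of 22 genes outside these families 5 rose, 6 fell and 11 did not pass, near the 19.7% that rose and 22.8% that fell over all tested genes. Afg3l2 and Lonp1, both proteases, rose (0.47 and 0.40 log2 units, limma adjusted p = 1.02e-05 and adjusted p = 5.8e-05) and Tomm40, the import pore, fell (-0.45, limma adjusted p = 3.68e-05).

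In the CCT ring, 4 of the 8 tested subunits fell and none rose, where 22.8% of all tested genes fell and 19.7% rose. Cct6a had 12601, 12783 and 13374 normalized counts with ferroptotic medium, against 15629, 15459 and 15371 with normal medium. Every ferroptotic library lay below every normal one (log2 fold change -0.26, SE 0.03, limma adjusted p = 0.000206). Tcp1, the founding subunit, had 14553, 15077 and 15142 with ferroptotic medium, against 18963, 16939.5 and 17596 with normal medium (-0.26, SE 0.04, limma adjusted p = 0.00145).

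Cct5 had 15049.8, 14702 and 14584 normalized counts with ferroptotic medium, against 17233, 16834 and 17022 with normal medium (log2 fold change -0.20, SE 0.03, limma adjusted p = 0.0004). Cct8 had 13498, 13029.6 and 13351 with ferroptotic medium, against 15094, 15456 and 16086 with normal medium (-0.23, SE 0.03, limma adjusted p = 0.000663). Neither overlapped. Cct2 had 21537, 22767 and 22585 normalized counts with ferroptotic medium and 22721, 21867 and 22829 with normal medium, which overlap (log2 fold change -0.01, SE 0.03, limma adjusted p = 0.811). Cct3 and Cct4 overlapped as well (limma adjusted p = 0.998 and adjusted p = 0.726). Cct7 did not overlap (-0.06) but did not pass (limma adjusted p = 0.116). It passed as a fall under quantile normalization and under scaling by summed counts. Tcp1, Cct6a, Cct7 and Cct8 share exon bases with genes on the opposite strand in M21, the most being 571 between Tcp1 and Acat3.

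Per kilobase of transcript, the level of Cct3 was 12399 normalized counts with ferroptotic medium and 12413 with normal medium, the highest of the ring. That of Cct4 was 4451 with ferroptotic medium and 4593 with normal medium, the lowest. The subunits assemble in equal numbers into 2 stacked rings, yet their transcript levels per kilobase spanned 2.79-fold with ferroptotic medium and 2.70-fold with normal medium.

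**Figure D3:**
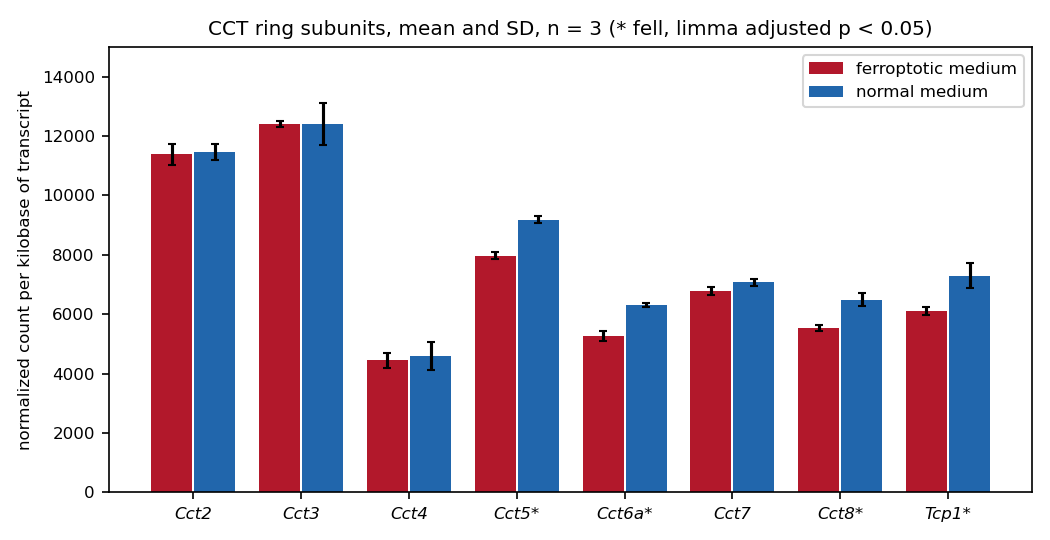
Normalized counts per kilobase of the principal M21 transcript (vertical axis, from 0) for the 8 CCT subunits; bars give mean and SD, n = 3, ferroptotic medium left of normal medium, and asterisks mark subunits that fell. Cct3 and Cct2 stand highest, and the 4 marked subunits are Cct5, Tcp1, Cct8 and Cct6a.

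Among the partners of the ring, of 13 prefoldin and phosducin-like genes 2 rose, 1 fell and 10 did not pass, so 23.1% were called, against 42.5% of all tested genes. Pfdn2, a prefoldin subunit, fell (-0.21, limma adjusted p = 0.00576). Pdcl3 and the tubulin-folding cofactor Tbce rose (0.26 and 0.23, limma adjusted p = 0.00657 and adjusted p = 0.0214).

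Of 35 tested DNAJ genes 8 rose, 8 fell and 19 did not pass, so 45.7% were called, near the 42.5% of all tested genes. The rises numbered 4 without ferroptotic medium replicate 3 and 5 without normal medium replicate 2 or without normal medium replicate 3. In the same 3 settings 2668, 2741 and 2768 of all tested genes rose, against 3077 with all libraries. Among 8 DNAJB genes 5 rose and 1 fell, where 19.7% of all tested genes rose and 22.8% fell. Of those 5, Dnajb5, Dnajb6 and Dnajb12 lost the call without ferroptotic medium replicate 3. Among 3 DNAJA genes 0 rose and 1 fell. Dnaja1, a main partner of cytosolic HSP70, had 5735, 6032 and 6064 normalized counts with ferroptotic medium, against 8305, 7411 and 8203 with normal medium (log2 fold change -0.42, SE 0.05, limma adjusted p = 0.00018). Every ferroptotic library was lower. It shares 608 exon bases with Smu1 on the other strand. Dnaja2 had 8015, 8031 and 8597 counts with ferroptotic medium and 8274, 7795 and 7984 with normal medium, and did not pass (limma adjusted p = 0.544). Dnaja3, a mitochondrial J protein, had 3384, 2507 and 3377 with ferroptotic medium and 3185, 3264 and 3453 with normal medium, and did not pass either (limma adjusted p = 0.535).

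Dnajb1, the heat-inducible partner of HSP70, had 1507, 1518 and 1623 normalized counts with ferroptotic medium, against 1800.1, 1760.2 and 1756 with normal medium (log2 fold change -0.19, SE 0.05, limma adjusted p = 0.0175). Its close relative Dnajb4 had 1247, 1363 and 1378 with ferroptotic medium, against 729.6, 760.3 and 733 with normal medium (0.84, SE 0.07, limma adjusted p = 1.52e-05). Neither gene had overlapping libraries. The ratio of Dnajb4 to Dnajb1 was 0.828, 0.898 and 0.849 with ferroptotic medium, against 0.405, 0.432 and 0.418 with normal medium. The fall of Dnajb1 was lost without ferroptotic medium replicate 2 (limma adjusted p = 0.0562) or normal medium replicate 1 (limma adjusted p = 0.0587).

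Of the other DNAJB genes, Dnajb5 had 527, 541 and 628 normalized counts with ferroptotic medium, against 304, 444 and 418 with normal medium (log2 fold change 0.56, SE 0.15, limma adjusted p = 0.0168). It did not pass without ferroptotic medium replicate 3 (limma adjusted p = 0.0621). Dnajb2, whose protein also binds ubiquitin, had 1076, 844 and 1073 with ferroptotic medium, against 724, 775 and 686 with normal medium (0.45, SE 0.11, limma adjusted p = 0.00907). Dnajb6, known to hold back polyglutamine aggregation, rose by 0.13 log2 units (limma adjusted p = 0.0275) and was lost under 6 of 15 alternatives, 4 of them leaving out 1 library. Dnajb12, of the endoplasmic reticulum membrane, rose by 0.18 (limma adjusted p = 0.0479) and was lost under 9 of 15, 5 of them leaving out 1 library.

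**Figure D4:**
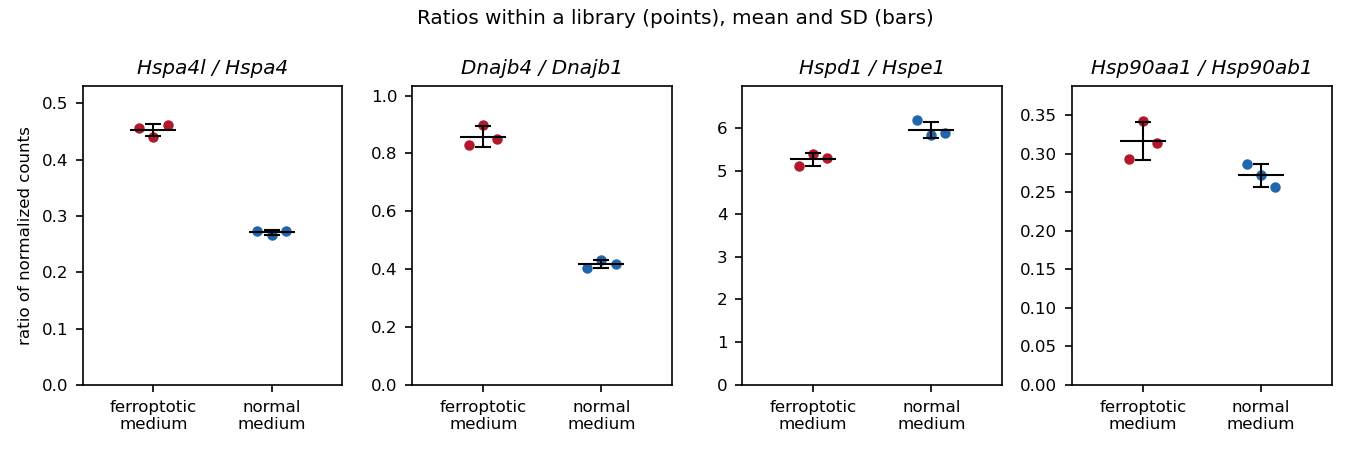
Ratios of normalized counts of 4 gene pairs within each library (vertical axes, from 0); points are libraries, ferroptotic medium in red and normal medium in blue, and bars give mean and SD, n = 3. Red and blue do not overlap in the 4 panels; the ratio of Dnajb4 to Dnajb1 averages 0.858 with ferroptotic medium and 0.418 with normal medium.

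Ratios of 7 gene pairs were taken within libraries after the values had been seen, so they describe these libraries. For 6 of the 7 the exact permutation test (two-sided) gave p = 0.1, the smallest p that 3 against 3 libraries allow, and 0.117 after Benjamini-Hochberg adjustment over the 7. The remaining ratio, Hspa1b to Hspa1a, gave p = 0.8 in the exact permutation test.

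The DNAJC genes, which mostly serve a single task each, moved both ways: of 24 tested, 3 rose, 6 fell and 15 did not pass. The share called, 37.5%, was below the 42.5% of all tested genes. Dnajc9, a histone H3-H4 cochaperone, had the largest fall among the called members. Its normalized counts were 1185, 1200.2 and 1054 with ferroptotic medium and 2122, 2187 and 2067 with normal medium, without overlap (log2 fold change -0.89, SE 0.07, limma adjusted p = 9.35e-06). The proliferation markers Mki67, Rrm2 and Top2a fell in the same libraries (log2 fold changes -1.82, -1.55 and -1.52), and their part in the fall of Dnajc9 was not tested. Dnajc17, linked to splicing, had 263, 228 and 208 counts with ferroptotic medium, against 301, 346 and 350.5 with normal medium (-0.51, SE 0.12, limma adjusted p = 0.00985).

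Dnajc27, which joins a GTPase domain to a J domain, had 604, 628 and 813 normalized counts with ferroptotic medium, against 976, 965 and 823 with normal medium (log2 fold change -0.44, SE 0.13, limma adjusted p = 0.0204). The media came close, at 813 with ferroptotic medium and 823 with normal medium, and the call was lost without ferroptotic medium replicate 1 or 2 or normal medium replicate 1 or 2 (limma adjusted p-values 0.0653 to 0.0722). The rises were Dnajc1, Dnajc16 and Dnajc14, all endoplasmic reticulum membrane proteins. Dnajc1 had 1948, 1946 and 2050.1 counts with ferroptotic medium, against 1489.6, 1599.6 and 1558 with normal medium (0.36, SE 0.05, limma adjusted p = 0.000733).

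Dnajc16 rose by 0.23 log2 units (limma adjusted p = 0.00517) and Dnajc14 by 0.19 (limma adjusted p = 0.0364). Dnajc14 was lost under 5 of the 6 fits that leave out a library, and passed without ferroptotic medium replicate 2. Dnajc1 and Dnajc14 overlap genes on the opposite strand by 749 and 1114 exon bases. Among 10 members set down as residents or membrane proteins of the endoplasmic reticulum 5 rose, 0 fell and 5 did not pass, with a median log2 fold change of 0.19. The background shares are 19.7% rising and 22.8% falling. This list was chosen with earlier results of these data known, so its counts describe these genes only. The 5 that rose were Hspa13, Dnajc1, Dnajc16, Dnajc14 and Dnajb12. Dnajc14 and Dnajb12 both lost the call without ferroptotic medium replicate 1 or 3 and without normal medium replicate 2 or 3, while Hspa13, Dnajc1 and Dnajc16 kept it in all 15 alternatives.

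Small heat shock proteins hold unfolded clients without ATP. Of the 7 Hspb symbols 5 were tested, 1 rose, 1 fell and 3 did not pass. The share called was thus 40%, near the 42.5% of all tested genes. The one that rose was Hspb11, the intraflagellar transport subunit, which was also the most abundant. Hspb7 had 149.9, 169.9 and 182 normalized counts with ferroptotic medium, against 259.5, 234 and 256 with normal medium (log2 fold change -0.58, SE 0.12, limma adjusted p = 0.00518). Hspb11 had 556, 553 and 600.3 with ferroptotic medium, against 409, 465 and 422 with normal medium (0.40, SE 0.09, limma adjusted p = 0.00604). Hspb6 did not overlap (251, 226 and 244 with ferroptotic medium, against 291, 288 and 292 with normal medium) but did not pass (limma adjusted p = 0.0564), although it passed as a fall under 4 of 15 alternatives. Hspb8 had 37.2, 15.3 and 16.6 with ferroptotic medium, against 8.81, 12.6 and 16.6 with normal medium (limma adjusted p = 0.244). Hspb3 had 11.7, 10.2 and 12.2 with ferroptotic medium, against 0, 9.25 and 0 with normal medium (limma adjusted p = 0.0802). Hspb3 met the filter only through the ferroptotic libraries. It passed without normal medium replicate 2 (limma adjusted p = 0.0133), which removes the one normal library above 0, and with limma-voom (limma adjusted p = 0.0288), so neither pass is support for a rise.

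Hspb1, the heat-inducible small heat shock protein HSP27, was below the filter. It was at 0 in each ferroptotic library, and had 1.96, 2.52 and 8.81 normalized counts with normal medium, 14 reads in all. The other 12 genes below the filter were Hspb9, Cct6b, Cct8l1, Dnaja4, Dnajb3, Dnajb7, Dnajb8, Dnajc6, Hsf2bp, Hsf3, Hsf4 and Hsf5. Each had at most 26 reads over the 3 ferroptotic libraries and at most 24 over the 3 normal ones, and these 13 genes were not tested.

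Of the 6 heat shock factor symbols only Hsf1 and Hsf2 were tested, and the libraries of the media overlapped for both. Hsf1, the main heat shock factor, had 1733, 1287 and 1301 normalized counts with ferroptotic medium, against 1768, 1235 and 1487 with normal medium (log2 fold change -0.05, SE 0.17, limma adjusted p = 0.837). Hsf2 had 1168, 1252 and 1301 with ferroptotic medium, against 1129, 1213 and 1251 with normal medium (0.05, SE 0.07, limma adjusted p = 0.604). Of 25 genes known to be raised by heat shock through HSF1, chosen with earlier results known, 23 were tested, 5 rose, 13 fell and 5 did not pass, with a median log2 fold change of -0.19. The background shares are again 19.7% and 22.8%. The rises included Dnajb4, Hspa4l and Hsp90aa1, described above. All 13 that fell are members here or belong to the HSP90 cochaperones below. These falls are thus counted in other groups too and are not separate support.

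Beyond the family names, of 20 HSP90 cochaperones and HSP70-HSP90 adaptors 2 rose, 9 fell and 9 did not pass, with a median log2 fold change of -0.15. Over all tested genes 19.7% rose and 22.8% fell, here and for the next list. Stip1 (HOP), which hands clients from HSP70 to HSP90, averaged 7699 ± 285 normalized counts with ferroptotic medium and 11042 ± 232 with normal medium (SD, n = 3; log2 fold change -0.52, limma adjusted p = 8.36e-06). Nudc fell by 0.39 log2 units and Sugt1 rose by 0.43 (limma adjusted p = 1.57e-05 and adjusted p = 4.61e-05). Of 17 exchange and quality-control partners of HSP70, 4 of which are members here, 3 rose, 9 fell and 5 did not pass, with a median of -0.14. Sgtb, a tetratricopeptide cochaperone, averaged 679 ± 82.7 normalized counts with ferroptotic medium and 254 ± 37.8 with normal medium (1.42, SE 0.13, limma adjusted p = 4.41e-05). Ubqln4 fell by 0.45 log2 units (limma adjusted p = 3.61e-05).

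The partner genes split. Hspbap1, which binds a small heat shock protein, had 335, 397 and 393 normalized counts with ferroptotic medium, against 226, 192 and 206 with normal medium (log2 fold change 0.85, SE 0.12, limma adjusted p = 0.000463). The exchange factor Hspbp1 had 1968, 1822 and 1613 with ferroptotic medium, against 2159, 2195 and 2043 with normal medium (-0.25, SE 0.08, limma adjusted p = 0.0282). No ferroptotic library overlapped a normal one for either gene. The call of Hspbp1 was lost without ferroptotic medium replicate 2 or 3 or normal medium replicate 1 or 2 (limma adjusted p-values 0.0565 to 0.082). Hspbap1 shares 430 exon bases with an antisense model, so its reads and those of that model cannot be told apart without strand.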

How the data were processed

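Per the labels' protocols, mRNA libraries were prepared from total RNA with PCR enrichment and run on an Illumina instrument. The submitters' processing notes name R 3.4.3, DESeq2 1.18.1, HISAT2 2.1.0 and fastp 0.17.1. The sources used here do not give the genome build, annotation, counting tool or strand setting. The authors deposited a log2 value per gene and library, which behaves as the log2 of a count divided by a size factor, plus 1. After the log was undone, 100% of low values were whole multiples of 1 read within 0.01, and whether reads were counted or estimated is not known. A shorter table of the authors was not used.

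Normalized counts are the undone log2 values. Where a symbol stood on several IDs, the ID with the highest mean was kept. The log2 values were tested with limma 3.58.1 (trend, robust, two-sided) in R 4.3.3, with the medium as the only term. The 15597 tested genes had 10 or more normalized counts in 3 or more libraries, and p-values were Benjamini-Hochberg adjusted over them. Raw counts were not the deposited unit, so no count model was the main test. The script was tested on simulated data. Fold changes are on the log2(normalized count + 1) scale, which understates changes of low genes, and SE is limma's moderated standard error. Replicate libraries of a medium differed by more than sampling noise (chi-square divided by its degrees of freedom, 16.3 to 22.8), so none looked like a copy.

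The members, lists and named genes were chosen with earlier results of these data known. Values in every library were to be given for 19 set members and, in each role group, for up to 4 members with the smallest p-values and the largest called rise and fall. Of other lists up to 3 called genes were to be named. The gene pairs put into ratios were chosen after their values were seen. Not every gene of the heat shock list is reported here by name. Transcript lengths and overlaps came from GENCODE M21, which held 26051 of the 26096 gene IDs (99.8%). Alternatives were a pseudocount of 10, filters of 1 and 50 normalized counts and none, quantile normalization, scaling by summed counts, limma-voom with TMM on the whole reads, limma without trend and robust, a replicate block, and leaving out each library.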

Additional observations from a re-analysis of the deposited data

How the results depend on the processing

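Of the 36 called members 24 kept direction and call in all 15 alternatives, 12 lost the call in at least 1, and 0 reversed. The counts most open to the setting were of rises: limma without trend and robust left 8 members and 4 DNAJ genes rising, against 14 and 8. Over all tested genes it left 2831 rising, against 3077. Leaving out 1 library gave 9 to 13 members and 4 to 7 DNAJ genes rising; the lowest members count and the lowest DNAJ count came without ferroptotic medium replicate 3, and 5 DNAJ genes rose without normal medium replicate 2 and without normal medium replicate 3. Falls moved as well: with 1 library left out 17 to 22 members fell, against 22. Of the HSP70 and HSP110 genes 4 to 7 fell, against 6. Both counts of falls were lowest without normal medium replicate 2. Over all tested genes, leaving out 1 library gave 2668 to 2848 rises, against 3077, and 3030 to 3371 falls, against 3552. In the CCT ring 4 falls were counted in 13 of the 15 alternatives and 5 under quantile normalization and under scaling by summed counts. Of 12 named members that did not pass, 4 passed in at least 1 alternative (Cct7, Hsp90ab1, Hspb3 and Hspb6). Signs turned only for genes that did not pass: with limma-voom Cct2 was 0.0027 and Cct3 0.012, and with 1 library left out Cct2 ran from -0.031 to 0.013, Cct3 from -0.048 to 0.026, Cct4 from -0.13 to 0.0054, Dnaja3 from -0.18 to 0.035 and Hsf1 from -0.19 to 0.074. The cause of these shifts was not tested.

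Same-numbered libraries did not deviate together (correlations 0.00859, -0.0196 and -0.0393), so the numbers were not taken as pairs. With a replicate block 13 members rose and 21 fell, and 7 DNAJ genes rose and 7 fell; Dnajc27, Dnajb6 and Dnajc19 had limma adjusted p-values of 0.0653, 0.0661 and 0.0691.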
